A study of Homo sapiens with 6 samples.

Results

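The transcripts described here are those of the HSP90 chaperones, 6 of their partner proteins and HSF1, the transcription factor of the heat shock response. The 10 genes were chosen by name, with earlier results of these data known: HSP90AA1, HSP90AB1, TRAP1, STIP1, AHSA1, PTGES3, CDC37, FKBP4, CHORDC1 and HSF1. All 10 had a row among the 55401 gene names of the files, and all 10 were among the 15148 genes tested, which are those whose mean reached 1 TPM in any group. The RNA came from RMS13, a human alveolar rhabdomyosarcoma cell line, and from RMS13-R, its derivative with acquired resistance to the compound MAL3-101. This compound blocks the HSP70 chaperones, and DMSO is the solvent it was given in. Libraries lettered A and B made up each of 3 groups: parental RMS13 with DMSO, parental RMS13 with 10 µM MAL3-101, and RMS13-R with 10 µM MAL3-101, each harvested after 9 h. No allele or transgene is named for either line, and the labels do not say whether RMS13-R is a single clone. RMS13-R without MAL3-101 was not analysed here, so the resistant line and its response to the drug cannot be told apart in any comparison that uses it. Whether A and B are separate cultures is not stated, so the p-values below reflect only the spread among these 6 libraries. Levels are in TPM, transcripts per 1000000, which are shares of each library and keep no record of read depth.

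HSP90 is an abundant ATP-driven chaperone that folds and holds kinases, steroid hormone receptors and other clients in the cytosol. Clients pass to it from HSP70, the target of MAL3-101, across a bridge made by the STIP1 protein, also called HOP. Co-chaperones then set the pace of the cycle: AHSA1 speeds ATP hydrolysis, PTGES3 (p23) steadies the closed state, CDC37 brings kinases and FKBP4 serves steroid receptors. HSP70 and HSP90 also hold HSF1 inactive in unstressed cells. HSF1 freed by unfolded proteins forms trimers and binds heat shock elements, alternating GAA and TTC units, in the promoters of chaperone genes.

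The members did not move as a block. In parental cells MAL3-101 went with more CHORDC1 and more HSP90AA1, and with less PTGES3 and CDC37, whereas the other 6 members did not pass the test. The size of the CDC37 change depended on the DMSO library, with a log2 fold change of -0.67 without A and -0.23 without B. In resistant cells with the drug, HSP90AA1, HSP90AB1, STIP1, AHSA1, PTGES3 and CHORDC1 stood below parental cells with the drug and also below parental cells with DMSO. A gene was called at a Benjamini-Hochberg adjusted p under 0.05 from limma's moderated test on log2(TPM + 1), fitted on all tested genes. For parental MAL3-101 against parental DMSO, 4 of 10 members were called, beside 40.8% of all tested genes. Of these, 2 were higher (22.6% of all tested genes) and 2 were lower (18.2%). For resistant against parental MAL3-101, 7 of 10 were called, beside 56.1% of all genes, with 1 higher (21.3%) and 6 lower (34.8%). The split of all called genes in that comparison, 3228 higher and 5267 lower, was nearly even after median-ratio scaling (4097 and 4461) and upper-quartile scaling (4170 and 4388), while the members stayed at 1 higher and 6 lower in number. For resistant MAL3-101 against parental DMSO, 6 of 10 were called, beside 50.6% of all genes, with 0 higher (20.9%) and 6 lower (29.7%). The median log2 fold change of the members was 0.01, -0.38 and -0.32 in these comparisons, and that of all tested genes 0.02, -0.10 and -0.06. The share called in the first comparison was close to that of all genes. Each pair of comparisons shares 2 libraries, so their counts are not independent. In bulk RNA, fewer cells carrying a transcript and less of it per cell cannot be told apart.

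**Figure D1:**
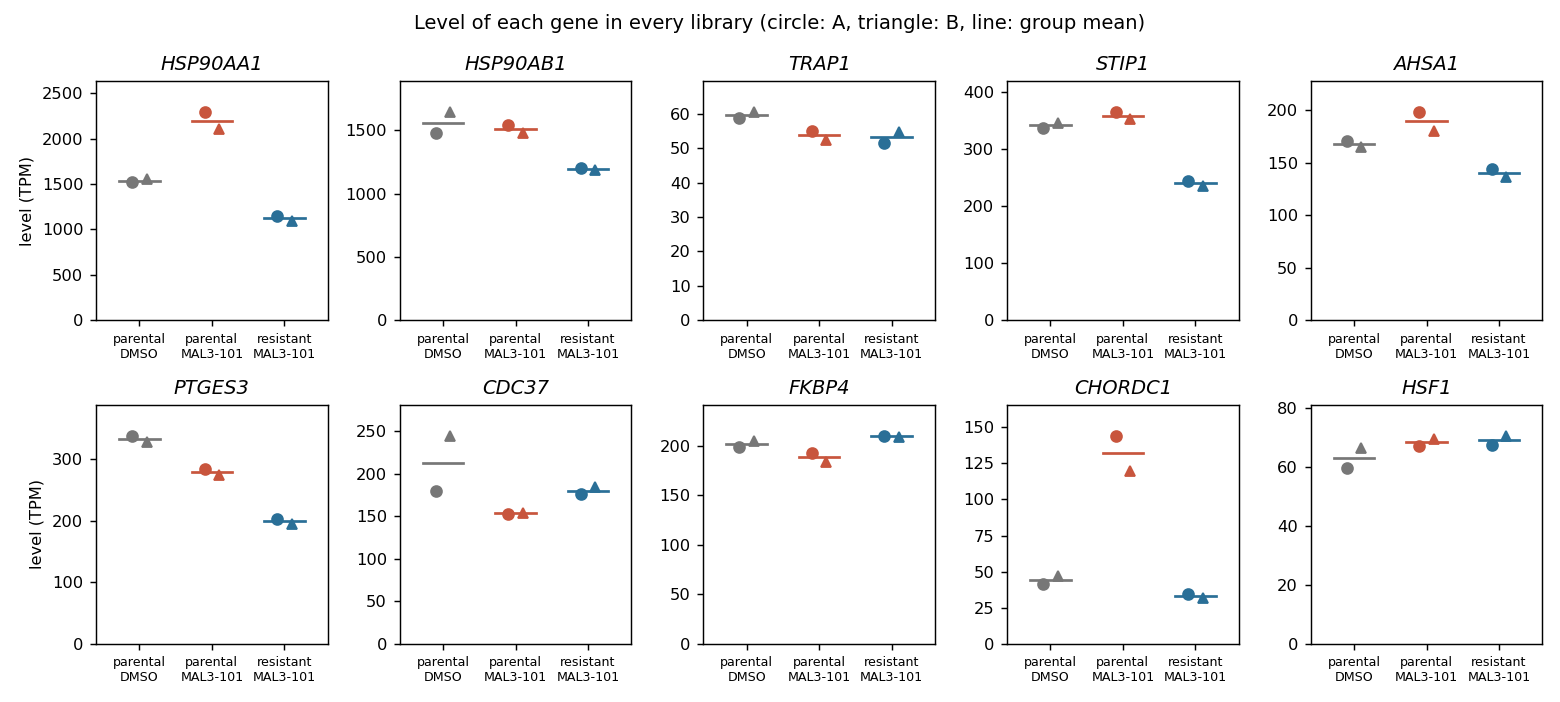
Level of each of the 10 members in TPM (vertical axes, each starting at 0) in the 3 groups (horizontal axes); circles are A libraries, triangles B libraries and lines group means. CHORDC1 stands at 144 and 119.8 TPM in the parental MAL3-101 libraries and at 46.8 TPM or less in the other 4 libraries, whereas HSF1 stays between 59.7 and 70.7 TPM.

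Libraries of a group had similar overall profiles. Between 13918 and 14334 gene names reached 1 TPM in a library, and A and B correlated across genes, which are not replicates, at 0.990 for the DMSO pair, 0.995 for the parental MAL3-101 pair and 0.996 for the resistant pair. The skeletal muscle lineage that marks this tumour was present: 7 of 8 muscle markers, among them MYOD1 and MYOG, reached 1 TPM in all 6 libraries, and MYF6 was at 0 in 5 libraries and at 0.05 TPM in 1. Their summed level lay within 2916 to 2981 TPM with DMSO, 2604 to 2617 TPM in parental cells with MAL3-101 and 2344 to 2381 TPM in resistant cells. These sums hold opposite shifts. For resistant cells against DMSO, 3 of the 7 tested markers were called higher and 3 lower, beside 20.9% and 29.7% of all tested genes. CHRNA1 stood at 285 and 337 TPM with DMSO and at 52.1 and 49.9 TPM in resistant cells. PAX3 stood at 37.1 and 35.8 TPM and at 75.3 and 76.7 TPM. MYOG differed between the DMSO libraries, at 522 and 320 TPM. Leukocyte markers (3 genes) summed to at most 0.43 TPM and endothelial markers (2 genes) to at most 0.33 TPM. The 3 epithelial markers summed to 3.58 to 3.87 TPM, 6.08 to 6.13 TPM and 0.47 to 0.49 TPM in the same order of groups. KRT5 was at 0 throughout, and EPCAM made up almost all of the sums in parental cells. In resistant cells EPCAM stood at 0.23 and 0.19 TPM and CDH1 at 0.24 and 0.30 TPM. Mitochondrial ribosomal RNA held 0.533% and 0.565% of TPM with DMSO, 1.92% and 1.97% in parental cells with MAL3-101 and 0.784% and 0.767% in resistant cells. The part of these shifts in the members' values was not tested.

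HSP90AA1 encodes HSP90 alpha, the stress-inducible cytosolic isoform. Its level was 1519 and 1556 TPM with DMSO, 2291 and 2104 TPM in parental cells with MAL3-101, and 1146 and 1094 TPM in resistant cells with MAL3-101. The 3 pairs did not overlap, with the parental MAL3-101 pair highest and the resistant pair lowest. Parental cells with the drug had 1.43 times the level of those with DMSO, which is 0.51 on the log2 scale (SE 0.06, limma adjusted p = 0.000671). The resistant cells stood at 0.51 times the level of parental cells with the drug, by -0.97 (SE 0.06, limma adjusted p = 1.9e-05), and by -0.46 (limma adjusted p = 0.000547) relative to DMSO. Ranked by level among all gene names, HSP90AA1 took places 111 and 109 with DMSO, 68 and 79 with MAL3-101 in parental cells, and 135 and 137 in resistant cells.

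HSP90AB1 encodes HSP90 beta, the constitutive cytosolic isoform. Its level was 1476 and 1643 TPM with DMSO, 1543 and 1476 TPM in parental cells with MAL3-101, and 1204 and 1186 TPM in resistant cells. The parental pairs overlapped, and both resistant libraries lay below all 4 parental ones. Between the parental groups the log2 fold change was -0.05 (95% interval -0.19 to 0.10, limma adjusted p = 0.580), an interval that leaves out a change of the size seen for HSP90AA1. That value was 0.03 without DMSO library B, and -0.12 (limma adjusted p = 0.0243) without DMSO library A. The resistant cells fell by 0.34 (SE 0.06, limma adjusted p = 0.00264) relative to parental cells with the drug and by 0.38 (limma adjusted p = 0.00173) relative to DMSO.

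The balance of the 2 cytosolic isoforms differed most in parental cells with the drug. HSP90AA1 made up 50.7% and 48.6% of their joint TPM with DMSO, 59.8% and 58.8% in parental cells with MAL3-101, and 48.8% and 48.0% in resistant cells. The parental MAL3-101 pair lay above the other 4 libraries, while the DMSO and resistant pairs overlapped. An exact two-sided permutation test gave p = 0.333 for parental MAL3-101 against either other group, the smallest value that 2 against 2 libraries allow, and p = 0.667 for resistant cells against DMSO. The joint level was 2995 and 3199 TPM with DMSO, 3834 and 3580 TPM in parental cells with the drug, and 2350 and 2279 TPM in resistant cells. Reads shared between close copies are a limit of any such split. The HSP90A pseudogene rows together held 1.0 to 1.3 TPM per library, and the shares were the same at the precision given here when each was added to its parent gene.

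**Figure D2:**
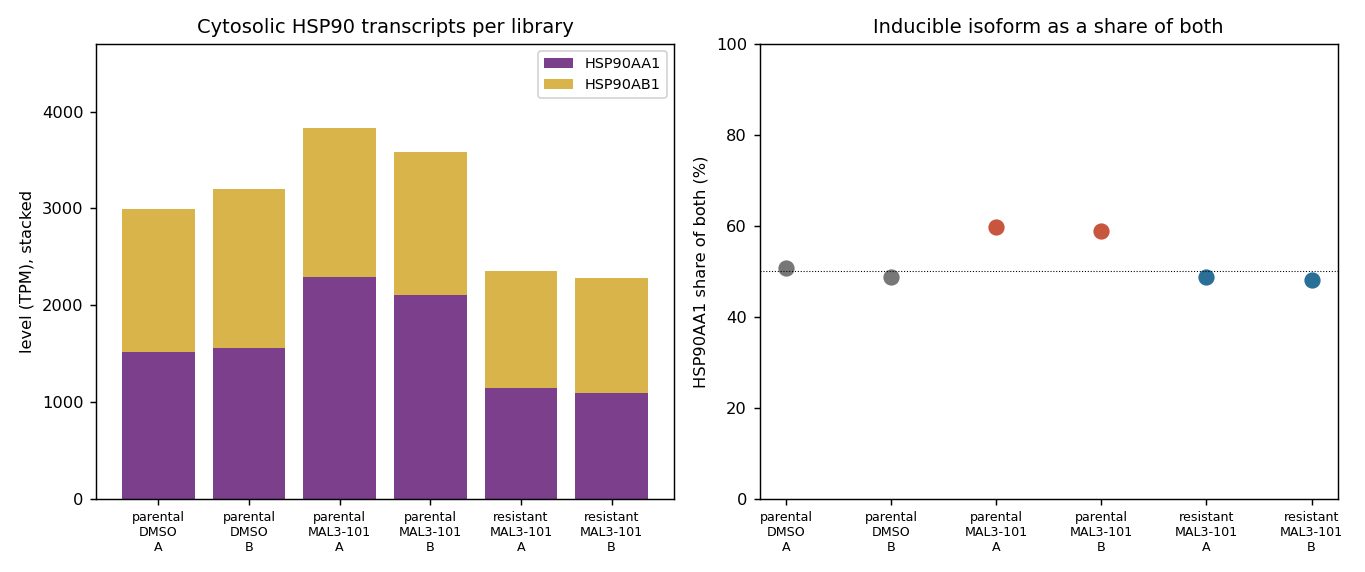
Left, TPM of HSP90AA1 and HSP90AB1 stacked in each of the 6 libraries; right, HSP90AA1 as a percentage of their sum, with a dotted line at equal shares. The share is 59.8% and 58.8% in the parental MAL3-101 libraries and between 48.0% and 50.7% in the other 4.

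TRAP1 encodes the mitochondrial member of the family. Its level was 58.8 and 60.5 TPM with DMSO, 54.9 and 52.5 TPM in parental cells with MAL3-101, and 51.5 and 54.8 TPM in resistant cells. Both DMSO libraries were highest, and the other 2 pairs overlapped. No comparison passed the test: the log2 fold changes were -0.15 (limma adjusted p = 0.0802), -0.02 (0.843) and -0.16 (0.0510) for parental drug against DMSO, resistant against parental drug, and resistant drug against DMSO. The first became a call after median-ratio scaling (-0.18, limma adjusted p = 0.0490) and upper-quartile scaling (-0.19, limma adjusted p = 0.0352), and both comparisons with DMSO passed without DMSO library A (limma adjusted p = 0.0470 and 0.0313). Resistant cells against DMSO also passed with a filter at 5 TPM (limma adjusted p = 0.0461). The value of -0.02 turned to 0.08 and 0.09 under the same scalings.

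CHORDC1, also known as morgana, encodes a zinc-binding partner of HSP90 and had the largest fold changes of the 10 members in both comparisons that involve parental cells with the drug. Its level was 41.1 and 46.8 TPM with DMSO, 144 and 119.8 TPM in parental cells with MAL3-101, and 34.6 and 31.5 TPM in resistant cells. The pairs did not overlap, and the parental MAL3-101 pair stood well above the rest. In parental cells MAL3-101 went with 3.0 times the DMSO level, which is 1.56 on the log2 scale (SE 0.10, limma adjusted p = 9.57e-05). In resistant cells it was 0.25 times that of parental cells with the drug, a log2 fold change of -1.96 (SE 0.10, limma adjusted p = 1.45e-05). The resistant cells fell by 0.40 (SE 0.10, limma adjusted p = 0.0164) relative to DMSO. That last call was lost without DMSO library B (limma adjusted p = 0.0590) and without resistant library B (limma adjusted p = 0.112). CHORDC1 ranked 4014 and 3483 among all gene names with DMSO, 987 and 1231 in parental cells with the drug, and 4405 and 4803 in resistant cells.

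The promoters of the 2 members that rose in parental cells, and of HSP90AB1, which did not pass the test there, hold heat shock element letters, and the stretches that carry them are shown for that reason. RefSeq promoter windows on GRCh38.p14, from 250 bases before an annotated start to 50 bases from it on, were at hand for 8 of the 10 members, with 13 windows in all. They were searched on both strands for GAANNTTC and TTCNNGAA, both of which read the same on either strand and overlap each other where 3 units alternate. Capitals mark the matches in the 30-base stretches below, each written 5′ to 3′ on the strand of its gene. The CHORDC1 stretch lies at chr11:90223083-90223112 on the minus strand and the HSP90AA1 stretch at chr14:102087104-102087133 on the minus strand, before the second of its 2 annotated starts. The HSP90AB1 stretches lie at chr6:44247770-44247799 and chr6:44247823-44247852 on the plus strand, before the third of its 3 annotated starts and so downstream of the other two.
CHORDC1: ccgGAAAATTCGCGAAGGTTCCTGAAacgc
HSP90AA1: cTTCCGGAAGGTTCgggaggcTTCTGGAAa
HSP90AB1, far: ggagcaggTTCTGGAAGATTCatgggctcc
HSP90AB1, near: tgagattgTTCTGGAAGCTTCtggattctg

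CHORDC1 carried the longest run, with 4 overlapping 2-unit matches whose first bases lay 60, 55, 50 and 45 bases before its start, and further single matches at 205 and 23 bases. The matches of HSP90AA1 began 88, 83 and 68 bases before that start, and those of HSP90AB1 165, 160, 112 and 107 bases before. STIP1 had 1 match, 13 bases after its second start. The windows of TRAP1, AHSA1, PTGES3 and CDC37 held no such letters. FKBP4 and HSF1 had no window in the table. A 2-unit match occurred in 4 of 8 members and in 16.2% of the 27305 genes with a window. A run of 3 alternating units occurred in 3 of 8 members, CHORDC1, HSP90AA1 and HSP90AB1, and in 0.608% of all genes. These counts take a gene with a match in any of its windows. By window, 2-unit matches occurred in 4 of 13 member windows and 13.5% of all windows, and 3-unit runs in 3 of 13 and 0.49%. The matches describe sequence only; binding was not measured, and the files do not say which start was used. The 3 genes with a 3-unit run did not share a response in parental cells, where the log2 fold changes were 1.56, 0.51 and -0.05.

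**Figure D3:**
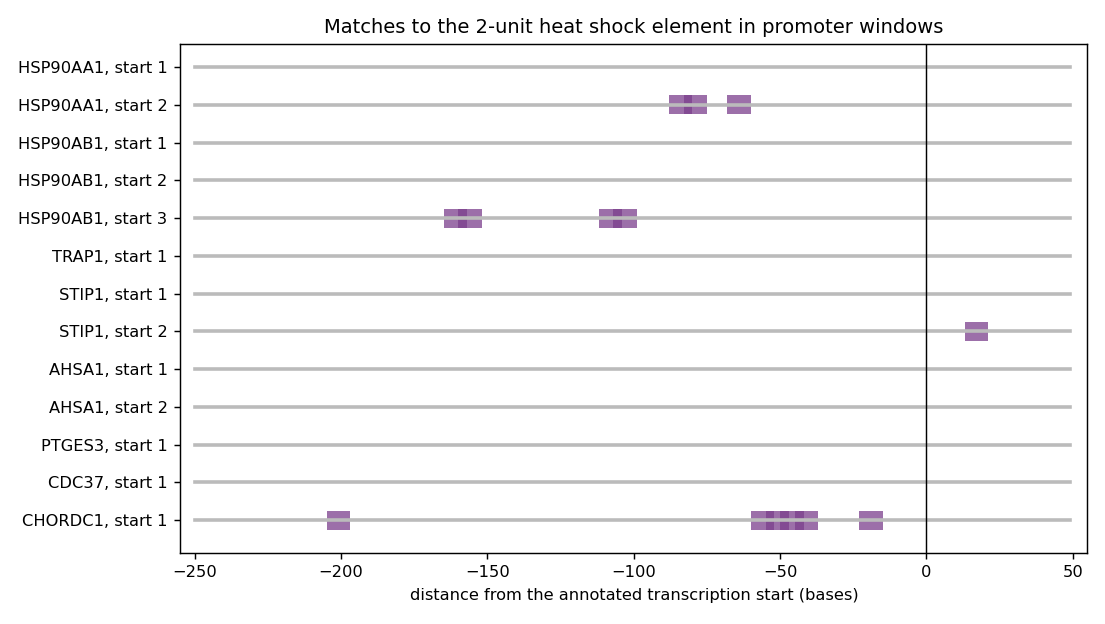
Positions of 2-unit heat shock element matches (boxes) in the 13 RefSeq promoter windows of 8 members, by distance in bases from the annotated start. In the CHORDC1 window 4 matches begin 60 to 45 bases before the start, and 4 of the 13 windows hold any match.

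STIP1, the bridge between HSP70 and HSP90, stood at 338 and 346 TPM with DMSO, 364 and 352 TPM in parental cells with MAL3-101, and 245 and 234 TPM in resistant cells. The parental pairs lay close together and both resistant libraries lay far below them. The log2 fold change was 0.07 between the parental groups (95% interval -0.04 to 0.17, limma adjusted p = 0.278). Resistant cells fell by 0.58 (SE 0.05, limma adjusted p = 6.39e-05) relative to parental cells with the drug and by 0.51 (SE 0.05, limma adjusted p = 0.000137) relative to DMSO.

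AHSA1, the activator of the HSP90 ATPase, stood at 170.3 and 165 TPM with DMSO, 198 and 181 TPM in parental cells with MAL3-101, and 144 and 137 TPM in resistant cells. The pairs did not overlap. The log2 fold change of 0.17 between the parental groups missed the threshold (95% interval 0.03 to 0.31, limma adjusted p = 0.0512) and passed it without DMSO library A (limma adjusted p = 0.0350), with a filter at 5 TPM (0.0444) and with a replicate block (0.0317). Resistant cells fell by 0.43 (SE 0.06, limma adjusted p = 0.000748) relative to parental cells with the drug. They fell by 0.26 (SE 0.06, limma adjusted p = 0.00911) relative to DMSO, a call that was lost without resistant library B (limma adjusted p = 0.0831).

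PTGES3, or p23, was the 1 member that was lower in parental cells with the drug than with DMSO and lower again in resistant cells, with a call at each step. Its level was 337 and 327 TPM with DMSO, 284 and 274 TPM in parental cells with MAL3-101, and 202 and 195 TPM in resistant cells. The 3 pairs formed 3 separate levels. MAL3-101 went with a fall of 0.25 in parental cells (SE 0.05, limma adjusted p = 0.00489), which was lost without parental MAL3-101 library B (limma adjusted p = 0.0533). Resistant cells fell by 0.49 (SE 0.05, limma adjusted p = 0.000132) relative to parental cells with the drug. They stood at 0.60 times the DMSO level, a log2 fold change of -0.74 (SE 0.05, limma adjusted p = 3.15e-05), which had the largest size of the 10 members in that comparison. The related rows PTGES3L and PTGES3L-AARSD1 stood at 4.78 to 10.2 TPM and 1.35 to 3.72 TPM, and 5 PTGES3 pseudogene rows at 0.17 TPM or less.

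CDC37, which delivers kinases to HSP90, stood at 179 and 244 TPM with DMSO, 152 and 154 TPM in parental cells with MAL3-101, and 176 and 184 TPM in resistant cells. DMSO library B lay far above the other 5 libraries, and the resistant pair overlapped the DMSO pair. The log2 fold change between the parental groups was -0.45 (SE 0.12, limma adjusted p = 0.0258). It was -0.67 without DMSO library A (limma adjusted p = 3.85e-05) and -0.23 without DMSO library B (limma adjusted p = 0.00472). That call was lost without parental MAL3-101 library A (limma adjusted p = 0.121) or B (0.111) and without resistant library A (0.0564) or B (0.0547). The other comparisons did not pass, at 0.23 (limma adjusted p = 0.152) for resistant against parental MAL3-101 and -0.22 (limma adjusted p = 0.186) for resistant cells against DMSO. With the DMSO libraries out of the fit, the value of 0.23 had an adjusted p = 0.000422 by limma. It also passed without DMSO library A (0.000618) or B (0.000885). Without DMSO library A the resistant cells fell by 0.44 relative to DMSO (limma adjusted p = 0.000116), and without library B that value was 0.00.

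FKBP4, an immunophilin of the steroid receptor complexes, varied least of the co-chaperones between groups. It stood at 198 and 205 TPM with DMSO, 193 and 184 TPM in parental cells with MAL3-101, and 209.9 and 209.3 TPM in resistant cells. The parental MAL3-101 pair was lowest and the resistant pair highest. Only resistant against parental MAL3-101 passed the test, at 0.15 (SE 0.05, limma adjusted p = 0.0243), and this call was lost in each fit without 1 of those 4 libraries (limma adjusted p = 0.0558 and 0.166 without parental A and B, 0.130 and 0.121 without resistant A and B). The other values were -0.10 (limma adjusted p = 0.132) with MAL3-101 in parental cells, called without DMSO library A (limma adjusted p = 0.0399), and 0.06 (limma adjusted p = 0.337) for resistant cells against DMSO.

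No comparison of HSF1 itself passed the test. Its level was 59.7 and 66.5 TPM with DMSO, 67.4 and 69.7 TPM in parental cells with MAL3-101, and 67.6 and 70.7 TPM in resistant cells. DMSO library A was lowest, and the 2 drug-treated pairs overlapped. The log2 fold changes were 0.12 (95% interval -0.04 to 0.28, limma adjusted p = 0.189), 0.01 (-0.14 to 0.17, 0.887) and 0.13 (-0.02 to 0.29, 0.136) in the order used above. Without DMSO library B, both comparisons with DMSO were called, at 0.20 (limma adjusted p = 0.0194) and 0.21 (limma adjusted p = 0.0124). Without DMSO library A the same values were 0.04 (limma adjusted p = 0.499) and 0.06 (limma adjusted p = 0.372). HSF1 is controlled largely at the protein level, which these files do not measure.

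**Figure D4:**
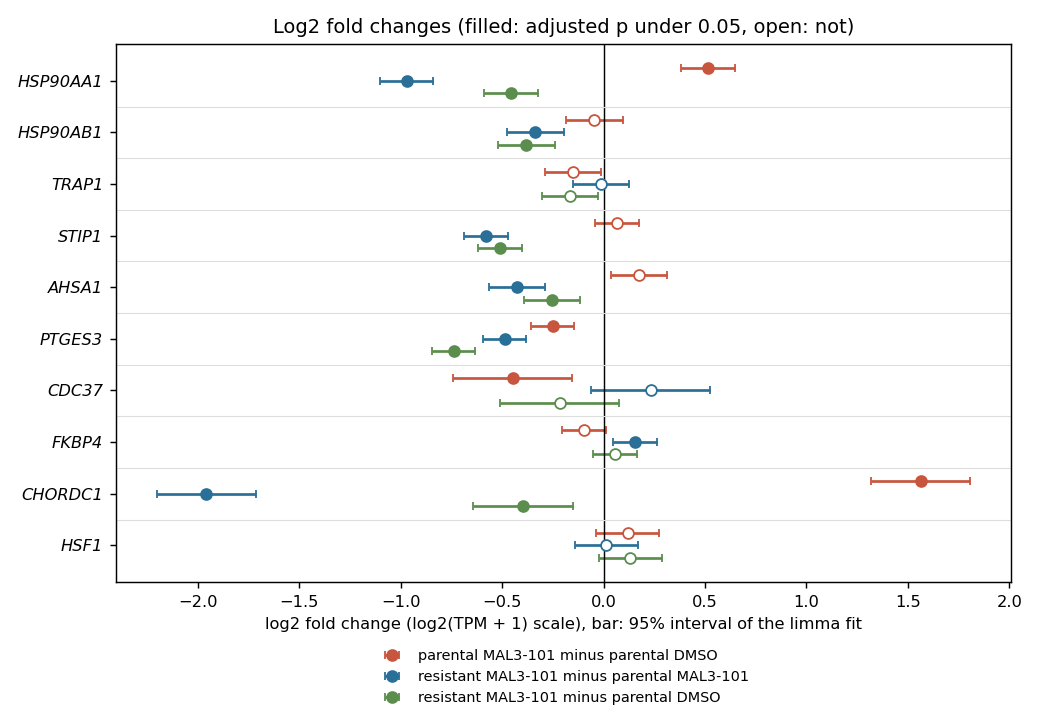
Log2 fold changes of the 10 members on the log2(TPM + 1) scale in the 3 comparisons, with 95% intervals of the limma fit; filled points have an adjusted p under 0.05. CHORDC1 has the largest changes, 1.56 and -1.96, and HSP90AB1 and STIP1 have intervals that include 0 in parental cells but not in either comparison with resistant cells.

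The order of levels, given per length in TPM, shifted with the drug and the line. With DMSO, HSP90AB1 and HSP90AA1 came first and overlapped, followed by STIP1, PTGES3, CDC37 and FKBP4 (the last 2 overlapping), AHSA1, HSF1 and TRAP1 (overlapping), and CHORDC1 last at 43.9 ± 4.02 TPM (SD, n = 2). In parental cells with MAL3-101, HSP90AA1 led at 2198 ± 132 TPM over HSP90AB1 at 1509 ± 47.3 TPM, AHSA1 and FKBP4 overlapped, and CHORDC1 had passed HSF1 and TRAP1, at 132 ± 17.1 TPM. In resistant cells HSP90AB1 led again, at 1195 ± 13.1 TPM over HSP90AA1 at 1119.9 ± 37.0 TPM, CHORDC1 was last at 33.1 ± 2.21 TPM, and no neighbours overlapped. The 10 members together held 0.438% and 0.466% of all TPM with DMSO, 0.529% and 0.497% in parental cells with the drug, and 0.348% and 0.340% in resistant cells. An exact two-sided permutation test gave p = 0.333, the smallest possible, for each pair of groups. The 6 co-chaperones summed to 42.2 and 41.7 TPM for every 100 TPM of cytosolic HSP90 with DMSO, 34.8 and 35.3 in parental cells with the drug, and 43.0 and 43.5 in resistant cells. Their own sum was 1264 and 1334 TPM with DMSO and 1336 and 1264 TPM with the drug in parental cells, which overlapped, and 1011 and 991 TPM in resistant cells.

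Genes of the same family outside the 10 members were followed as a list of 6. HSP90B1, which encodes the endoplasmic reticulum form GRP94, stood at 711 and 645 TPM with DMSO, 1655 and 1611 TPM in parental cells with MAL3-101, and 495 and 489 TPM in resistant cells. It rose by 1.27 with the drug in parental cells (SE 0.06, limma adjusted p = 1.45e-05), and resistant cells fell by 1.73 relative to parental cells with the drug and by 0.46 relative to DMSO. HSF4, another heat shock factor, stood at 17.2 and 16.1 TPM with DMSO, 4.85 and 5.13 TPM in parental cells with the drug, and 13.9 and 15.6 TPM in resistant cells. It fell by 1.56 with the drug (SE 0.10, limma adjusted p = 7.87e-05) and was higher by 1.40 in resistant than in parental cells with the drug. HSF2, a related factor, rose by 0.55 (SE 0.07) with the drug in parental cells and was 0.42 higher in resistant cells than with DMSO. HSBP1, a small HSF1-binding protein, fell by 0.20 (SE 0.05) with the drug and was 0.50 higher in resistant than in parental cells with the drug. HSF2BP, with mean levels of 1.66 to 3.14 TPM, was called only for resistant against parental MAL3-101, at -0.64 (SE 0.16), and HSF5, at 0.01 TPM or less in its group means, was not tested. Thus 4 of the 5 tested genes were called in each of the first 2 comparisons, and 3 in resistant cells against DMSO. Of all tested genes, 40.8%, 56.1% and 50.6% were called in the same order of comparisons.

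Among 28 tested genes of 30 listed as other HSP90 co-chaperones, the drug went with 6 higher, 8 lower and 14 not called in parental cells, with a median log2 fold change of -0.01. The share called was 50%, beside 40.8% of all genes. ITGB1BP2, the muscle protein melusin and a CHORD-domain relative of CHORDC1, fell by 1.44 (SE 0.19), from 4.18 and 4.69 TPM to 0.93 and 1.08 TPM, opposite in direction to CHORDC1. TTI1 and TELO2, partners in the assembly of PI3K-related kinases, fell by 0.70 (SE 0.06) and 0.67 (SE 0.09). AHSA2, a relative of AHSA1, and PPP5C, the phosphatase that binds HSP90, fell by 0.43 (SE 0.10) and 0.41 (SE 0.05). NUDCD2, a relative of NUDC, rose by 0.45 (SE 0.14), from 18.7 and 14.7 TPM to 25.8 and 20.5 TPM. CDC37L1, a relative of CDC37 at 8.73 to 12.8 TPM over the 6 libraries, rose by 0.33 (SE 0.11, limma adjusted p = 0.0471). For resistant against parental MAL3-101 the list had 3 higher, 15 lower and 10 not called, with a median of -0.24 beside -0.10 for all genes. That is 64.3% called, beside 56.1% of all genes. CACYBP and NUDC, which share a CS domain with p23, fell by 0.76 (SE 0.07) and 0.73 (SE 0.06). STUB1, the ubiquitin ligase CHIP, stood at 61.3 and 63.2 TPM in parental cells with the drug and at 39.2 and 35.5 TPM in resistant cells. TSC1, the tumour suppressor hamartin, and FKBP8, a membrane-anchored immunophilin, went the other way, higher by 0.78 (SE 0.07) and 0.67 (SE 0.05). For resistant cells against DMSO the counts were 3 higher, 16 lower and 9 not called, with a median of -0.25 beside -0.06 for all genes. Here 67.9% were called, beside 50.6% of all genes.

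HSF1 targets outside the members were followed as a list of 23. Of 22 tested chaperone and partner genes, 16 were higher, 1 was lower and 5 were not called with MAL3-101 in parental cells. The share called was 77.3%, beside 40.8% of all tested genes (22.6% higher and 18.2% lower), and the median of the list was 0.67. HSPA1B, an inducible HSP70 gene, stood at 129.9 and 128 TPM with DMSO, 2532 and 2083 TPM in parental cells with the drug, and 189 and 185 TPM in resistant cells. HSPA1A and HSPA1B are near-identical copies whose reads the counting may have split between them. DNAJB1, an HSP40 partner of HSP70, rose by 2.73 (SE 0.07) and BAG3, an HSP70 exchange factor, by 2.78 (SE 0.10). HSPA8, the constitutive HSP70, was the 1 called lower, at 1868 and 2251 TPM with DMSO and 1259 and 1188 TPM with the drug. For resistant against parental MAL3-101, 0 were higher, 20 were lower and 2 were not called, with a median of -1.41. That is 90.9% called, beside 56.1% of all tested genes. For resistant cells against DMSO, 4 were higher, 13 lower and 5 not called, with a median of -0.45. Here 77.3% were called, beside 50.6% of all tested genes. Among the 4 higher were HSPA6, at 2.13, HSPA1B, at 0.54, and HSPA1A, at 0.53. The largest falls among the 13 lower were those of HSPB8, at -1.81, CRYAB, at -1.51, and HSPH1, at -0.93. HSPA6 stood at 1.80 and 1.16 TPM with DMSO, 326 and 247 TPM in parental cells with the drug, and 10.4 and 9.23 TPM in resistant cells. CHORDC1, at 1.56, lay above the median of this list in parental cells, and HSP90AA1, at 0.51, lay below it. The lists describe these libraries, and no test compared one list with another.

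**Figure D5:**
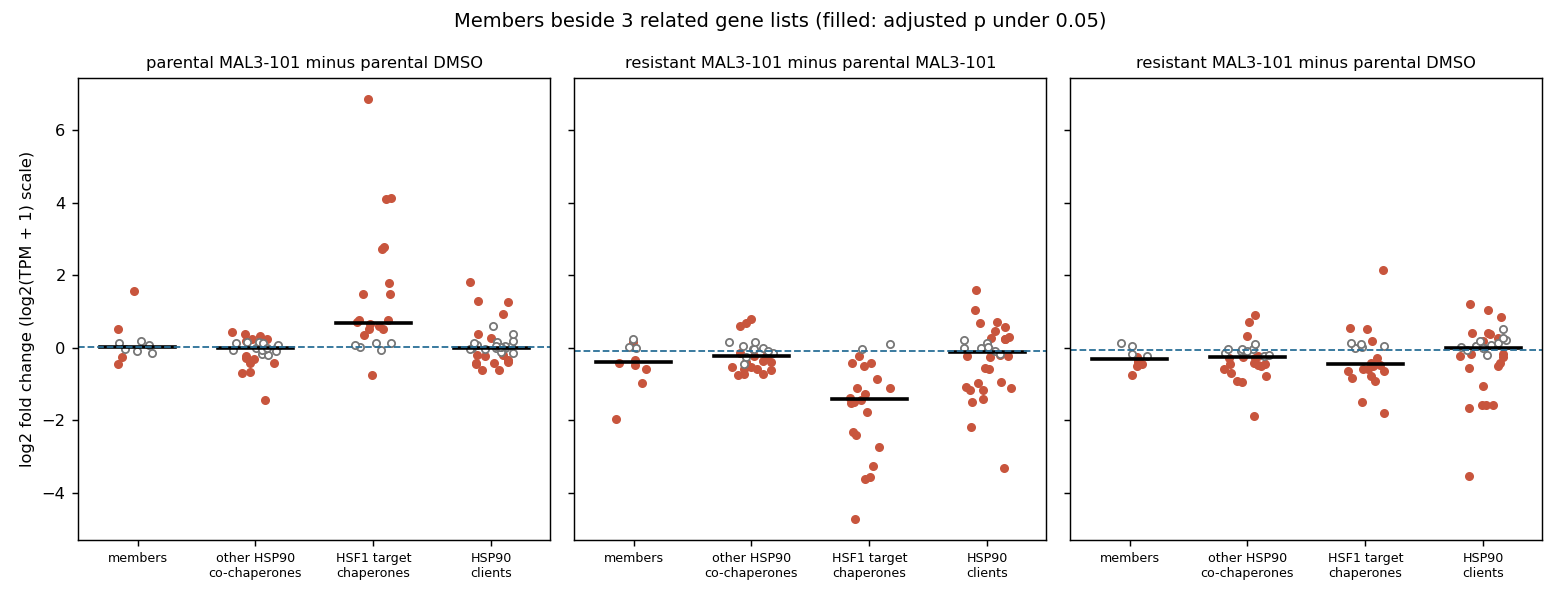
Log2 fold changes of the 10 members and of 3 related gene lists in the 3 comparisons; each point is a gene, filled where its adjusted p is under 0.05, black bars are list medians and the dashed line is the median of all tested genes. In parental cells the HSF1 target chaperones have a median of 0.67 and the members one of 0.01.

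Transcripts of HSP90 clients were followed as a list of 42 kinases, receptors and enzymes, of which 34 were tested. With MAL3-101 in parental cells 6 were higher, 10 lower and 18 not called, with a median of 0.00. The share called was 47.1%, beside 40.8% of all tested genes. EIF2AK3 and ERN1, the stress sensors PERK and IRE1 of the endoplasmic reticulum, rose by 1.81 (SE 0.10) and 1.29 (SE 0.13), and BRAF rose by 1.25 (SE 0.09). WEE1, a cell cycle kinase, and FGFR4, a receptor that alveolar rhabdomyosarcoma expresses at high levels, fell by 0.62 (SE 0.09) and 0.60 (SE 0.06). For resistant against parental MAL3-101, 10 were higher, 16 lower and 8 not called, with a median of -0.12. That is 76.5% called, beside 56.1% of all tested genes. EPHA2, a receptor tyrosine kinase, stood at 76.9 and 70.8 TPM in parental cells with the drug and at 6.48 and 6.47 TPM in resistant cells. FGFR1 went the other way, at 29.7 and 29.5 TPM in parental cells with the drug and 87.4 and 95.7 TPM in resistant cells. For resistant cells against DMSO, 8 were higher, 13 lower and 13 not called, with a median of 0.00. Here 61.8% were called, beside 50.6% of all tested genes. Chaperone effects on clients act on protein stability, and client protein was not measured.

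A search over 10915 genes, each averaging at least 5 TPM, looked for those whose centred log2(TPM + 1) values over the 6 libraries lay nearest to each cytosolic HSP90 gene. Nearest to HSP90AA1 were MED8, SH3GLB1 and WASH7P, with root mean square differences of 0.04, 0.05 and 0.05. MED8, a Mediator subunit, stood at 43.8 and 44.5 TPM with DMSO, 66.8 and 64.9 TPM in parental cells with the drug, and 31.8 and 32.6 TPM in resistant cells. Nearest to HSP90AB1 were WWTR1, CDC20 and TMBIM6, with differences of 0.02, 0.03 and 0.03. With 6 libraries in 3 groups, many genes have a similar shape.

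Some members overlap another gene in RefSeq, and the sources used here do not say whether counting used strand. WDR20, which overlaps HSP90AA1, stood at 15.5 to 21.4 TPM, far below the lowest HSP90AA1 value of 1094 TPM. DNASE1 overlaps TRAP1 and stood at 10.3 to 18.9 TPM beside 51.5 to 60.5 TPM for TRAP1, and DGAT1 overlaps HSF1 and stood at 16.0 to 22.3 TPM beside 59.7 to 70.7 TPM for HSF1.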

How the data were processed

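RNA-seq was analysed in 6 libraries of RMS13 and RMS13-R cells. Per the labels' protocols, total RNA was column-purified and made into paired-end TruSeq libraries. RSEM, DESeq and hg19 are named in the submitters' processing notes with no version. Aligner, annotation and strand setting were not given in the sources used here. TPM per gene symbol were deposited by the authors, 1 file per library. The TPM were not counts, so no count model was run, and no interval from counting can be given. Titles of the DMSO samples also carry the drug's name; their descriptions, which name DMSO, were followed.

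Log2(TPM + 1) values of 15148 genes, whose mean reached 1 TPM in any group, were fitted with limma 3.58.1 in R 4.3.3: group means over 6 libraries, mean-variance trend, 3 residual and 4.17 prior degrees of freedom. P-values were adjusted by Benjamini-Hochberg within each comparison over all tested genes, and intervals are unadjusted 95% intervals. A fold change on this scale understates changes of low genes. The code was tested on simulated data. The members and gene lists were chosen with earlier results of these data known. All members were named, and up to 6 called genes with the largest change could be named from each list. The text takes part of them and adds HSPA8, the 1 listed HSF1 target called lower in parental cells with the drug. All genes of the list of other HSP90 and HSF genes were named, and rows beginning with a member's symbol where they reached 1 TPM. Promoter windows came from RefSeq on GRCh38.p14, which is not the files' build, and serve for sequence only; Python 3.11.15 searched them. Alternatives were pseudocounts of 0.1 and 5, no filter, a filter at 5 TPM, only the compared libraries, a replicate block, median-ratio and upper-quartile scaling, no trend, a test against a fold of 1.5, and each library left out in turn.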

Additional observations from a re-analysis of the deposited data

How the results depend on the processing

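Of 480 alternative fits of a member in a comparison, 434 kept the outcome of the main fit, whether that was a call or no call. A call was lost in 30 and gained in 16, and 0 turned the direction of a called value. In 8 of the 480 fits, in 4 member comparisons, a value that was not called changed sign. Tested by limma against a fold of 1.5, 1 member passed in parental cells (CHORDC1), 2 for resistant against parental MAL3-101 (HSP90AA1 and CHORDC1), and 0 for resistant cells against DMSO, where 1 had an unadjusted p under 0.05 (PTGES3); of all tested genes 346, 1604 and 1244 passed. With 1 library left out, the count of members called in parental cells ranged from 2 (without parental MAL3-101 library B) to 8 (without DMSO library A), while the count over all genes was 3353 and 7708 in those fits, against 6181. Such fits leave 1 group with 1 library, assumed to vary like the others. With a replicate block of the letters, 5, 7 and 6 members were called in the 3 comparisons, against 4, 7 and 6 without it, and AHSA1 was the member gained. Over all genes the block gave 5942, 8381 and 7492 calls, against 6181, 8495 and 7662. The main fit had no block because the labels do not say that the letters mark a shared batch. A minus B differences correlated across genes at 0.03, -0.02 and -0.02 between groups. The summed TPM of the members differed by -1691 between resistant and parental cells with the drug, and by -1409 and -1381 after median-ratio and upper-quartile scaling. Upper-quartile scaling moved the median of all genes by 0.11 (log2) in that comparison. CDC37 lost its call in parental cells with no filter (limma adjusted p = 0.102) and no trend (0.0679), CHORDC1 its call against DMSO with no filter (0.0634), and FKBP4 its call with no trend (0.0986). TPM keep no depth, so counting error could not be set apart from other spread.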
